A study of Mus musculus with 3 samples.

Results

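In the mouse oocyte, 5-methylcytosine (m5C) marks many sites of maternal mRNAs, and a share of them was called in both oocyte stages but not in the 1-cell embryo although the gene itself was still called there. These missing sites were selected on the presence or absence of a site in 3 lists of called sites: a site had to be in the germinal vesicle (GV) oocyte list and in the metaphase II (MII) oocyte list, be absent from the 1-cell embryo list, and lie in a gene with at least 1 other site in the embryo list. The rule gave 5104 missing sites in 2561 genes, out of 40298 distinct sites in 8353 genes in all 3 lists. The sites of the same genes that were called at all 3 stages are named kept sites here, and there were 3064 of them in 1459 genes. The absence from the embryo list is what chose the missing sites and is not a finding.

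Bisulfite sequencing of RNA was done on C57BL/6J mice aged 7 to 8 weeks that are described as wild type, with 1 library for each stage. This age is that of the labels, while the study's methods give 7 to 10 weeks for the females that gave oocytes. The fully grown GV oocytes, still arrested in prophase of the first meiotic division, were taken 48 h after injection of 10 IU PMSG, a hormone that drives follicle growth. MII oocytes, which are mature and unfertilized, came 12 h after 5 IU of hCG, the ovulation trigger, in females primed with 10 IU of PMSG. The embryos, about 200 of them, were taken 24 h after 5 IU of hCG from females primed with 5 IU of PMSG and mated with C57BL/6J males. These doses are those of the labels, while the study's methods state more hCG for MII oocytes and an identical induction for the embryos, so it is not settled if the doses were equal. The labels name polyadenylated RNA and the methods name RNA depleted of ribosomal RNA. The conversion text of the labels also differs between oocytes and embryo, and stage and library preparation cannot be told apart. The lists of GV oocytes, MII oocytes and embryos hold 15910, 20694 and 24996 sites, with a median of 121, 107 and 58 reads a site. With 1 library a stage, no difference between stages has a replicate check.

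Bisulfite converts C to U, which is read as T, and leaves m5C as C, so the level of a site is the share of its reads that stayed C. NSUN2 is the writer of most mRNA m5C and prefers a C that is followed by G-rich sequence at the 5′ side of a hairpin (Type I sites). NSUN6 methylates the C that opens the motif CUCNA (Type II sites). Fully grown oocytes and early embryos do not transcribe much and live on stored maternal mRNA, a large part of which is degraded between oocyte maturation and the early cleavages.

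The missing sites with the highest methylation are shown first and are not typical of the set. The median level of all missing sites was 19.4% in the GV oocyte and 24.3% in the MII oocyte. The 10 with the highest mean level among missing sites with at least 100 reads in both oocytes follow as RNA, 5′ to 3′, with 10 nt on each side of the methylated C. The C and the 4 bases after it are in capitals, because these bases separate Type I from Type II sites. All coordinates are GRCm38.
Alg10b, chr15:90229665-90229685, plus strand: ccaccccuugCAGGGaccccc
Usp42, chr5:143716059-143716079, minus strand: uggacuacgaCAGGGggaagc
Rapgefl1, chr11:98851974-98851994, plus strand: aacagggaaaCGCAGgccuaa
Zc3h3, chr15:75754787-75754807, minus strand: gggcucuaacCAGGAgucaua
Emc3, chr6:113531520-113531540, minus strand: gagccgaaagCCGGGaggaac
Nr6a1, chr2:38926330-38926350, minus strand: ccagagagugCGGCGgccgag
Dnm2, chr9:21465639-21465659, plus strand: ggcaggagauCGAAGcagaga
Casc1, chr6:145176248-145176268, minus strand: gaaggccuauCGGCAaauggc
Pacs2, chr12:113049874-113049894, plus strand: ucaagguggcCGAGAucugga
Sox8, chr17:25570566-25570586, minus strand: acagagugacCGGGCgcgacc
All 10 are Type I sites, and each has 2 or 3 G among the 4 bases after the C. Of all missing sites only 6.66% were Type II, and the Type I ones had a mean of 2.24 G there. They lie in a 5′ UTR 3 times, in the coding sequence (CDS) 4 times and in a 3′ UTR 3 times.

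Alg10b, which encodes a glucosyltransferase of N-glycan assembly, had the highest site. In the last exon, exon 3 of 3, this site was unconverted in 212 of 224 reads of the GV oocyte (94.6%, 95% interval 90.9 to 96.9) and in 201 of 216 reads of the MII oocyte (93.1%, 88.9 to 95.7). The 3 Alg10b sites that the embryo list holds had a median of 47 reads, none of them was shared by both oocytes, and the nearest lay 2035 nt away. The site of Usp42, a deubiquitinase, was at 90.5% of 190 reads and 93.0% of 129 reads in exon 15 of 18, and the embryo list held 1 other site of this gene, with 28 reads. The 5′ UTR of Emc3, a subunit of the complex that inserts membrane proteins into the endoplasmic reticulum, carried 85.3% of 150 reads and 92.6% of 149 reads. Nr6a1, an orphan nuclear receptor of germ cells, had 85.1% of 134 reads and 91.6% of 143 reads in its 5′ UTR.

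Sox8, a transcription factor, had 79.6% of 191 reads in the GV oocyte and 90.5% of 200 reads in the MII oocyte, and Dnm2, the membrane-severing GTPase dynamin 2, had 83.1% of 124 reads and 87.9% of 141 reads. For both, the embryo list held 1 site, with 38 reads in Sox8 and 22 in Dnm2. Of the 10 genes, 6 kept none of their oocyte-shared sites and the other 4 kept at least 1. In Zc3h3, a zinc finger protein of mRNA export, the missing 3′ UTR site was at 85.2% of 243 reads and 93.8% of 256 reads, while its kept site was at 25.4% of 669 reads, 28.0% of 710 reads and, in the embryo, 49.5% of 182 reads. The best-covered kept site of Rapgefl1 was at 56.0%, 73.3% and 72.1% in the GV oocyte, MII oocyte and embryo, against 82.2% and 97.4% at the missing site in the 3′ UTR. In these 2 genes the missing site was the higher of the 2 in the oocytes. Pacs2, a sorting protein, had 83.0% of 394 reads and 87.2% of 336 reads at its missing CDS site and kept 3 other sites, and Casc1 had 79.8% of 104 reads and 90.9% of 121 reads and kept none.

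Type II sites were also among the strongly methylated missing sites. The 3 with the highest mean level at 100 or more reads, which were chosen after their values were seen, are shown with the CUCNA motif in capitals.
Rest, chr5:77268548-77268568, plus strand: agggcgaguuCUCCAaaggcc
Pcbp1, chr6:86525388-86525408, minus strand: cucucccaguCUCCAcagggg
Foxk1, chr5:142457468-142457488, plus strand: ucccugauaaCUCCAagaagg
Rest, which encodes a repressor of neuronal genes, was at 75.5% of 889 reads in the GV oocyte and 84.4% of 596 reads in the MII oocyte in exon 2 of 4. Pcbp1, a poly(C)-binding protein with 1 exon, was at 78.7% of 1226 reads and 73.8% of 1181 reads. Foxk1, a forkhead transcription factor, was at 140 of 194 reads (72.2%) and 148 of 185 reads in its 3′ UTR.

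The missing sites made up 45.4% (Wilson 95% interval 44.5 to 46.3) of the 11249 sites that both oocytes shared in genes still listed in the embryo. Their genes fell into 2 kinds. In 1459 genes, which held 3050 missing sites, at least 1 oocyte-shared site was kept. In the other 1102 genes, with 2054 missing sites, no oocyte-shared site was kept. Of these 1102 genes, 863 were still listed only through sites that neither oocyte list held, and 239 had an embryo site shared with 1 of the oocyte lists. The genes without a kept site had a median of 2 embryo-listed sites, and those with one had a median of 5. Most genes lost few sites: 1397 genes had 1 missing site, 584 had 2, 469 had 3 to 5 and 111 had 6 or more.

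Missing sites were lower in level than kept sites of the same genes in both oocytes, and they were covered by fewer reads. The median level of the missing sites was 19.4% (95% interval 19.0 to 19.8) in the GV oocyte and 24.3% (23.8 to 25) in the MII oocyte. The median of the kept sites was 22.0% (21.5 to 22.7) and 28.4% (27.7 to 29.1). Over all 12954 oocyte-shared sites it was 20.9% and 26.5%. The median coverage of the missing sites was 101 reads in the GV oocyte and 81 reads in the MII oocyte, against 248 and 215 reads at the kept sites. In the MII oocyte, 26.5% of the missing sites (25.3 to 27.7) but 4.18% of the kept sites (3.52 to 4.95) had under 50 reads. The missing sites were not all weak: 481 of them (9.42%, 8.65 to 10.3) were at 50% or more in both oocytes, against 13.0% of the kept sites (11.9 to 14.3).

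The same held within genes, by gene medians. Over the 1459 genes with both kinds, the gene median of MII coverage was lower at the missing sites in 1132 genes (77.6%) and higher in 319, and the median ratio of missing to kept was 0.588 (95% interval 0.559 to 0.622). The ratio in the GV oocyte was 0.616 (0.595 to 0.654). The MII level was lower at the missing sites in 900 genes (61.7%) and higher in 558, with a median difference, missing minus kept, of -5.19 percentage points (-6.45 to -4.03). In the GV oocyte the difference was -3.31 points (-3.995 to -2.30). In 451 genes the coverage of the missing and the kept sites was within 1.5 times of each other in both oocytes, and there the MII level differed by -8.53 points (-9.98 to -6.61), lower at the missing sites in 313 genes and higher in 138. In most of these genes the missing sites thus had fewer reads, and in most of the genes with like reads they had the lower level. Sites of 1 gene come from the same library, though not always from the same annotated transcript, and are not replicates. The intervals of the within-gene values are those of the median over genes and do not give how far single genes vary. Those of shares and levels cover counting error alone.

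**Figure D1:**
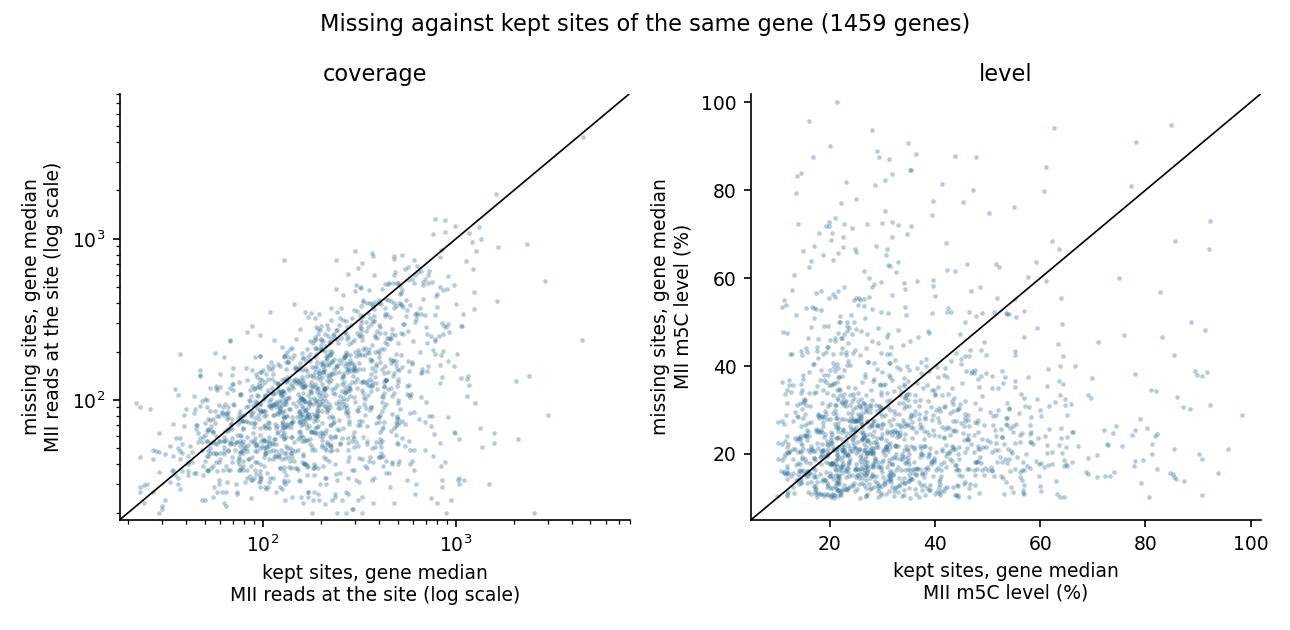
Each point is 1 of 1459 genes that have both missing and kept sites; the axes give the gene median at kept sites (x) and missing sites (y) of MII reads (left, log scales) and MII m5C level in percent (right), and the line marks equal values. In 1132 genes the point lies below the line for coverage, and in 900 genes it does for level.

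The share of sites that went missing fell steadily with the number of reads in the oocyte, at every level of methylation. Of the sites with 20 to 49 MII reads in still-listed genes, 85.5% (83.6 to 87.1) were missing. The share was 67.9% (66.1 to 69.7) at 50 to 99 reads, 44.7% (42.9 to 46.6) at 100 to under 200, 26.3% (24.5 to 28.1) at 200 to 399, 13.5% (11.7 to 15.4) at 400 to 799 and 5.26% (3.90 to 7.06) at 800 or more. By MII level alone it ranged less, from 55.1% (52.6 to 57.5) at 10 to under 15% down to 38.9% (35.6 to 42.4) at 70% or more. At 200 to 399 reads, the missing share was 39.2% (35.8 to 42.8) for levels of 10 to under 20% and 14.9% (11.7 to 18.7) for levels of 50% or more. Coverage of a site in the oocyte follows the abundance of the mRNA as well as the position in it, and fewer mRNA molecules and less methylation cannot be told apart from the lists where a site is absent.

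**Figure D2:**
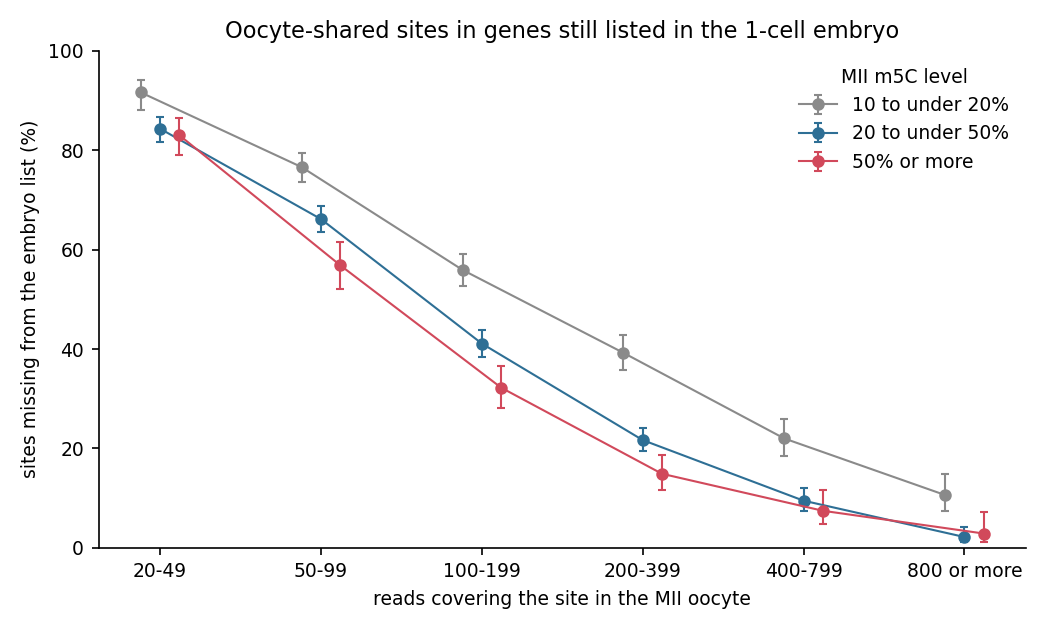
The y axis gives the percent of oocyte-shared sites in still-listed genes that the embryo list lacks, the x axis the reads covering the site in the MII oocyte, and each line a class of MII level, with Wilson 95% intervals. All 3 lines fall, from 83.0% to 91.6% at 20 to 49 reads down to 2.18% to 10.6% at 800 or more, and the weakest class lies above the others throughout.

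Only 41 missing sites had 800 or more MII reads, and 29 of them were below 20% in the MII oocyte. The 4 of the 41 that were at 50% or more, which were chosen after their values were seen, lay in Pcnt, Pcbp1, Dynll2 and Bcl2l1. Pcnt, the centrosomal scaffold pericentrin, was at 68.2% of 1347 reads in the GV oocyte and 83.6% of 1252 reads in the MII oocyte. It kept 3 other oocyte-shared sites, and the site of Pcbp1 shown above belongs to a gene with 1 kept site. Dynll2, a dynein light chain, was at 34.6% of 1206 reads and 57.3% of 1092 reads in its 5′ UTR. Bcl2l1, which encodes the survival factor Bcl-xL, was at 46.0% of 1066 reads and 55.8% of 951 reads. Embryo reads were fewer: the best-covered embryo-listed site had 75 reads in Pcnt, 303 in Pcbp1, 188 in Dynll2 and 37 in Bcl2l1.

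A site is listed only with at least 20 reads, 5 unconverted reads and a level of 10%, so at 20 reads a site has to reach 25% to be listed, and the 10% limit becomes the binding one only from 50 reads. The kept sites had a median of 54 reads in the embryo (52 to 56), and 25 of 3064 were below 11% there. Of the missing sites, 363 were below 11% in the GV oocyte and 181 in the MII oocyte, just inside the oocyte limit. The embryo list gives no reads for a missing site, and they had to be estimated.

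At the median coverage of the gene's listed embryo sites (42 reads on median) and the MII level, 4675 of the 5104 missing sites (91.6%, 90.8 to 92.3) would have met the limits. The same calculation for kept sites, from the other listed sites of the gene, gave 97.7% (97.1 to 98.2) of 2956. That coverage comes only from listed sites, which have at least 20 reads by construction, so it overstates the coverage of the gene. A second estimate, added after seeing the data, scaled the site's own MII reads by the median ratio of embryo to MII reads at the gene's other sites that both lists hold. The ratio had a median of 0.289 over the 3458 missing sites for which it could be formed. By this estimate 1234 of the 3458 (35.7%, 34.1 to 37.3) would have had under 20 reads in the embryo and 1927 (55.7%, 54.1 to 57.4) would have met the limits, against 91.3% (90.1 to 92.3) of 2498 kept sites. The ratio too is drawn from listed sites. How many missing sites lacked reads thus depends on the coverage assumed. The authors' limits on signal ratio and poorly converted reads entered neither estimate, because the embryo list gives no reads for a missing site.

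The estimated reads also ordered the missing share. With under 10 estimated reads, 95.1% (92.4 to 96.8) of the sites, missing and kept ones counted as 1 set, were missing, and with 160 or more it was 14.3% (11.3 to 18.03). Among sites with 160 or more estimated reads, 30.3% (23.6 to 38.0) of those at an MII level of 10 to under 20% were missing and 4.92% (1.69 to 13.5) of those at 50% or more. The missing sites with at least 100 estimated reads numbered 185 in 157 genes, their median MII level was 16.8%, and 6 of them were at 50% or more.

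**Figure D3:**
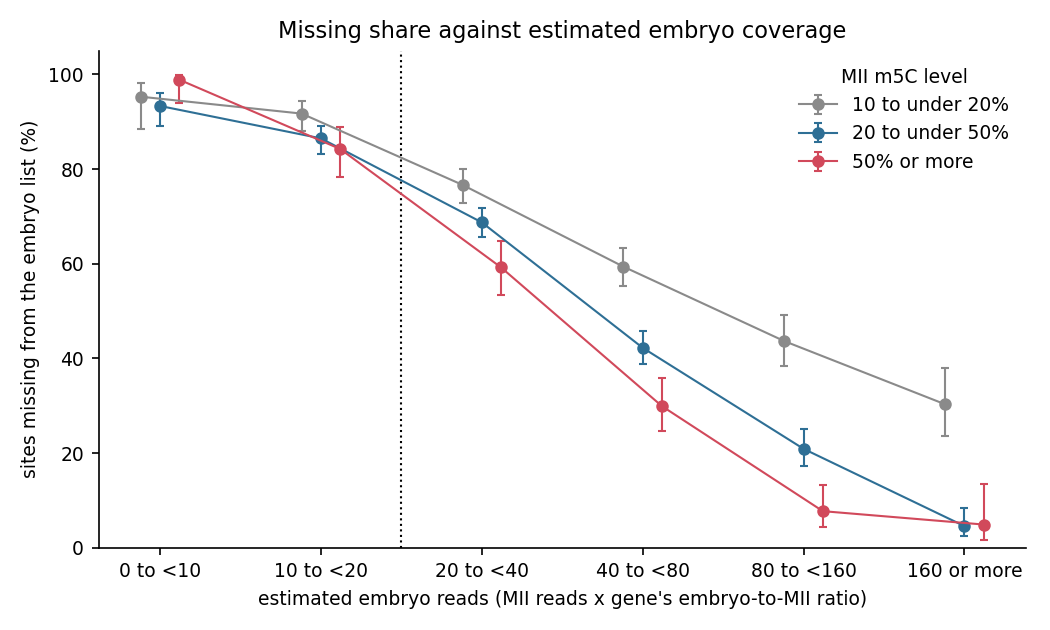
The x axis gives the reads estimated for each site in the embryo (its MII reads times the embryo-to-MII ratio of its gene), the y axis the percent of missing sites among missing and kept sites, with Wilson 95% intervals, and the lines 3 classes of MII level; the dotted line marks the listing limit of 20 reads. From 80 to under 160 estimated reads, 43.7% of the sites in the weakest class and 7.75% of those in the strongest class were missing.

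Some missing sites lay next to a C that the embryo list does hold, so that the same stretch of mRNA was read in the embryo. This was so for 122 missing sites (2.39%, 2.01 to 2.85) at a distance of up to 10 nt, against 13.3% (12.1 to 14.5) of the kept sites. Where both sites lie on the same annotated transcript, the median distance along it to the nearest embryo-listed site was 377 nt from 4896 missing sites and 87 nt from 2919 kept sites. For 11 of the 122, each in a different gene, the listed neighbour had at least 100 reads. Their MII level ran from 10.8% to 35.03% with a median of 15.3%, and 9 of the 11 were below 20%. None of the 11 reached 50%. These 11 do not stand for all 122, because strong sites also lay near a listed C with fewer reads. The missing Rapgefl1 site named above, at 82.2% of 146 GV reads and 97.4% of 114 MII reads, lay 8 nt from an embryo-listed site. No embryo-listed site of Rapgefl1 had more than 86 reads.

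3 of these stretches are printed to show how near the called and the missing C are. The missing C stands at position 11 of 21, and both it and the listed neighbour are in capitals.
Insm1, chr2:146222378-146222398, plus strand: gcgcccgcgcCgagcccCcgg
F8a, chrX:73228762-73228782, plus strand: ugcugcccuuCgCgcaguggg
Agps, chr2:75909671-75909691, plus strand: gacccacugaCCguguuugaa
In Insm1, a zinc finger transcription factor, the missing C was at 29.4% of 384 reads in the GV oocyte and 103 of 294 reads in the MII oocyte, and the C 7 nt downstream was at 25.4% of 134 reads in the embryo but in neither oocyte list. F8a, a partner of huntingtin, had the missing C at 10.4% of 414 reads and 19.1% of 398 reads. The C 2 nt downstream of it was at 27.1% and 30.9% in the oocytes and 24.8% of 117 reads in the embryo. In Agps, an enzyme of ether lipid synthesis, the missing C (12.0% of 292 reads and 14.0% of 193 reads) was followed directly by a C at 25.3% of 146 reads in the embryo that neither oocyte list holds.

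Further sites of this kind that the naming rule gave were in Itprid2, Strn4, Nup88, Ttyh3, Tsc22d2 and Lmnb1. They ran from 10.7% in the GV oocyte in Lmnb1, which encodes lamin B1, to 28.7% in the GV oocyte in Itprid2. Of the 11 neighbours, 6 were also in the MII list, with a median of 24.1% there and 32.2% in the embryo, and 5 were in neither oocyte list. In 5 of the 6 pairs with both C in the MII list, the missing C was the lower one. In the 5 pairs whose neighbour is in neither oocyte list, the call stood on the missing C in the oocytes and on its neighbour in the embryo. The reads at the missing C itself are not in the embryo list.

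Some genes had many missing sites along 1 mRNA. The 10 genes with most missing sites had 11 to 19 each. Kmt2b, a histone H3K4 methyltransferase that oocytes need, had most: all of its 19 oocyte-shared sites were missing, all in the CDS, and 17 of the 19 were higher in the MII than in the GV oocyte. Their levels ran from 10.7% to 73.4% in the GV oocyte (median 22.3%, median coverage 172 reads) and from 10.9% to 74.0% in the MII oocyte (median 27.3%, 139 reads). The highest Kmt2b site, in exon 26, was unconverted in 80 of 109 reads and in 74 of 100 reads, and the next, in exon 12, in 190 of 360 and 189 of 279 reads. The embryo list held Kmt2b through 2 sites that neither oocyte list has, with 22 and 34 reads.

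Kmt2d, a related H3K4 methyltransferase, had 13 missing and 2 kept sites among 20 embryo-listed sites. All 13 missing sites were higher in value in the MII than in the GV oocyte, and 5 were at 50% or more in both oocytes. A Type II site in exon 11 of Kmt2d was at 79.7% of 128 reads and 89.9% of 99 reads, and a 3′ UTR site in exon 55 at 77.6% of 353 reads and 88.6% of 273 reads. The 2 kept sites of Kmt2d were at 74.3% and 38.2% in the GV oocyte, 77.3% and 52.8% in the MII oocyte, and in the embryo in all of 29 reads and in 59 of 71 reads. Strong sites were thus both kept and missing within this mRNA. The embryo reads of its listed sites ran from 20 to 122.

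Cep170b, which encodes a centrosomal protein, had 15 missing and 4 kept sites with like coverage. The missing sites had a median of 274 GV and 239 MII reads, and the kept sites 231.5 and 187.5. The level of the missing sites was lower, with medians of 14.4% in the GV oocyte and 23.4% in the MII oocyte against 22.9% and 26.4% at the kept sites, and the ranges overlapped. In the embryo the 4 kept Cep170b sites were unconverted in 15 of 49, 10 of 38, 24 of 24 and 25 of 25 reads.

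Wdfy3, a scaffold of selective autophagy, had 16 missing sites and 1 kept site, and Zfyve26, a protein of lysosome renewal, had 16 missing sites and none kept. The median levels were 18.2% and 24.4% at the missing Wdfy3 sites and 19.5% and 31.7% at those of Zfyve26. The kept Wdfy3 site, at 18.7% of 139 reads and 26.9% of 119 reads, lay just above those medians and inside the range of the missing sites, and it was unconverted in 11 of 20 reads in the embryo. Shank2, a scaffold of the postsynapse, and Kalrn, a guanine nucleotide exchange factor, had 13 missing sites each and kept none. Vps13d, a lipid transfer protein, and Hectd4, a ubiquitin ligase, had 12 each, with 1 kept site in Vps13d at 14.8% of 189 reads and 24.5% of 159 reads in the oocytes and in 37 of 43 reads in the embryo. Dock6, an activator of Rac1 and Cdc42, had 11 missing sites with a median of 32 reads in either oocyte and median levels of 29.8% and 34.5%. Its kept site was lower, at 15.5% of 84 reads and 14.8% of 88 reads. In these genes the embryo sites had few reads, with gene medians from 21 in Dock6 to 55 in Hectd4.

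**Figure D4:**
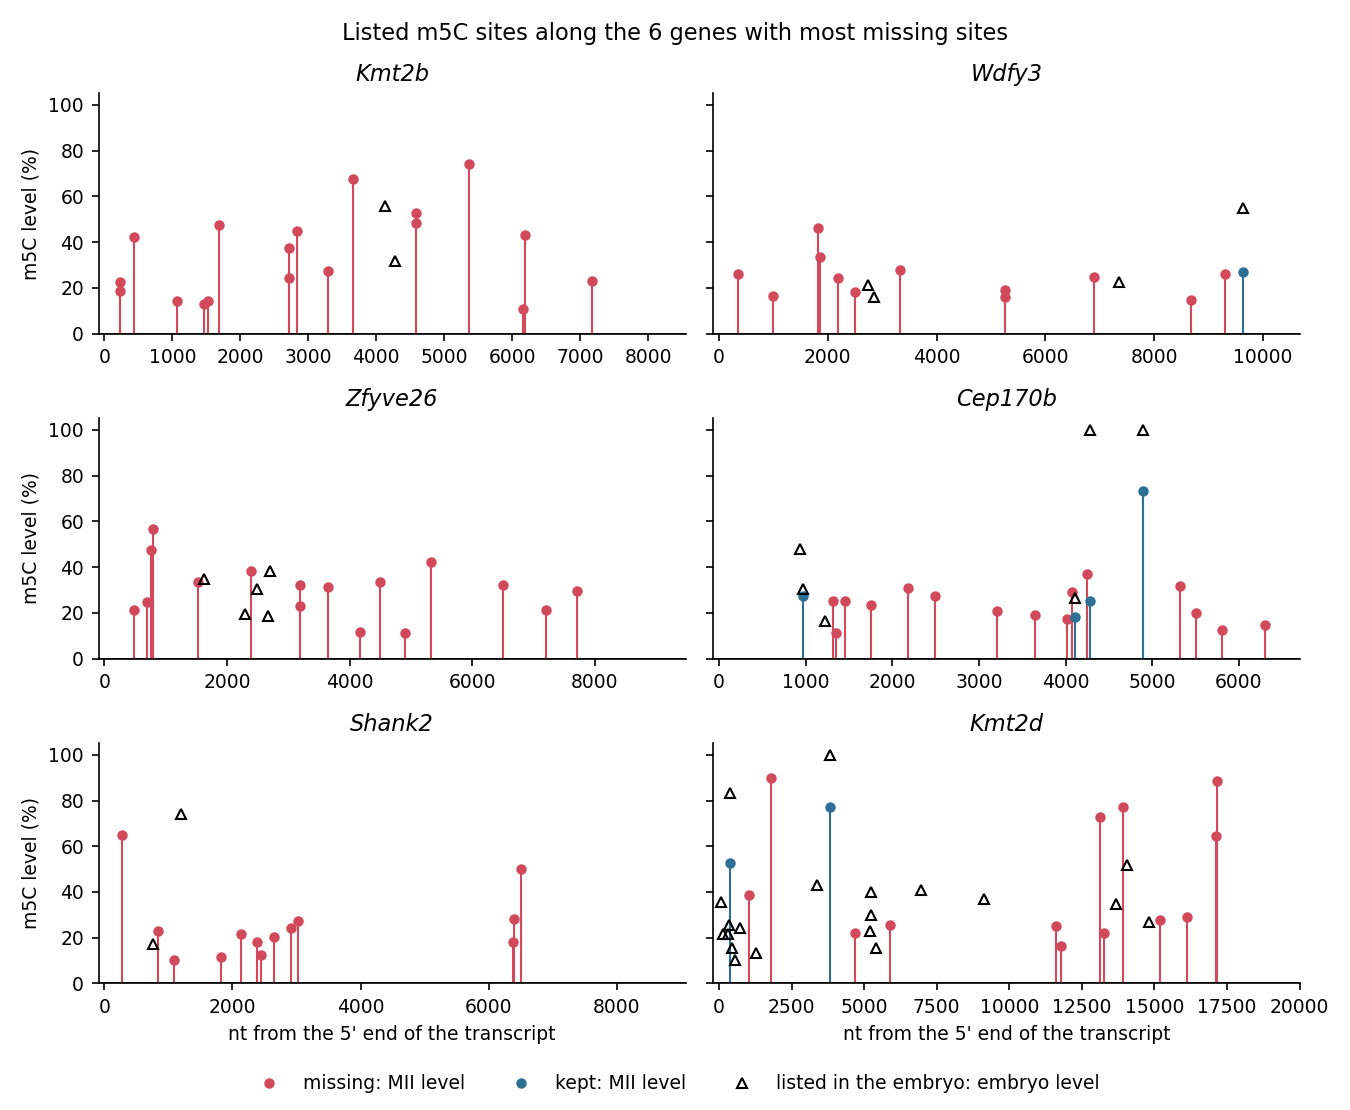
Called sites along the transcript that holds most missing sites of Kmt2b, Wdfy3, Zfyve26, Cep170b, Shank2 and Kmt2d, the first 6 genes by number of missing sites, are placed by nt from the 5′ end (x) and m5C level in percent (y): missing sites and kept sites at their MII level, and every embryo-listed site as a triangle at its embryo level. In Kmt2b, Zfyve26 and Shank2 there is no kept site, and the embryo-listed triangles lie between the missing sites.

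The 5 gene groups described next bear on the oocyte to embryo transition, and their lists were drawn up with earlier results of these data known. Their missing shares stand beside 45.4% (44.5 to 46.3) over all oocyte-shared sites in still-listed genes. The lists hold called sites and no expression level. For maternal-effect and oocyte genes, 45 symbols were looked for, some of them second names of a gene also in the list. Of these symbols, 36 had a called site at any stage, and 25 had an oocyte-shared site and were still listed. Of the 57 oocyte-shared sites of these 25 genes, 12 (21.1%, 12.5 to 33.3) were missing, in 7 genes. Their kept sites had a median of 1346 MII reads and their missing sites 159. Smarca4, the ATPase of the BAF remodelling complex, had 3 missing sites and none kept, at 11.8% to 37.9% in the GV oocyte and 14.3% to 42.2% in the MII oocyte, although 10 other Smarca4 sites were listed in the embryo with up to 89 reads. Gas6, a ligand of TAM receptors, had 2 missing sites, at 12.3% and 11.5% in the GV oocyte and 16.1% and 21.9% in the MII oocyte.

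Among chromatin regulators, 136 of 261 sites were missing (52.1%, 46.1 to 58.1), in 47 of 58 genes. Kmt2b and Kmt2d held 32 of the 136, and without them it was 104 of 227 sites (45.8%, 39.5 to 52.3), close to the share over all genes. Among signalling, adhesion and matrix genes it was 86 of 148 (58.1%, 50.1 to 65.8), in 26 of 30 genes. Plxnb1, a semaphorin receptor, had 10 missing sites and 1 kept site. The Plxnb1 site that stayed was at 64.2% (123 reads) in GV and 77.5% (80 reads) in MII oocytes and unconverted in 21 of 21 embryo reads, and the highest missing one, in exon 31, was at 61.0% of 77 reads and 81.6% of 38 reads. Celsr1, a cadherin of planar cell polarity, had 8 missing sites and none kept, with MII levels from 10.3% to 48.5%. Unlike for the chromatin regulators, the share of this group without Plxnb1 and Celsr1 was not calculated.

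For translation and mRNA decay factors, 51 of 125 sites were missing (40.8%, 32.6 to 49.6), an interval that includes the share over all genes. Mtor, the growth-controlling kinase, had 7 missing sites at MII levels of 13.6% to 34.8% and kept 1 at 60.8% (120 reads) in GV and 58.2% (79 reads) in MII oocytes, with 10 of 30 embryo reads unconverted. Eif4g3, a scaffold of translation initiation, went the other way: its 5 missing sites had medians of 16.8% and 28.7%, and its 2 kept sites were at 12.7% and 10.4% in the GV oocyte and 15.1% and 12.6% in the MII oocyte, with 431 and 437 MII reads. Of the cell cycle and meiosis regulators, 21 of 84 sites were missing (25%, 17.0 to 35.2). Espl1, the protease separase that opens cohesin, had 3 missing and 5 kept sites. Its missing sites were at 13.0%, 22.9% and 21.5% in the GV oocyte and 19.4%, 30.1% and 21.2% in the MII oocyte, within the range of its kept sites (10.1% to 77.9% and 12.9% to 85.9%). Tpx2, a spindle assembly factor, had 2 missing sites and none kept. The median MII reads of the missing sites ran from 87 in the translation group to 159 in the maternal-effect group, and the part of coverage in these shares was not tested.

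Between the 2 oocyte stages, most missing sites were higher in the MII oocyte, as most oocyte-shared sites were. Of the 5104 missing sites, 3643 (71.4%, 70.1 to 72.6) were higher there in value, and the median difference, MII minus GV, was 3.95 percentage points (3.70 to 4.19). By a two-sided Fisher's exact test of read counts in the 2 libraries (Benjamini-Hochberg adjusted over all 12954 oocyte-shared sites), 531 missing sites (10.4%) had a higher level in the MII oocyte and 34 (0.666%) a lower one. Over all sites tested, 19.6% were called higher and 0.965% lower. Of the kept sites, 828 (27.0%) were called higher and 31 lower. The test compares 2 libraries and not the conditions, and with the reads divided by 5, as a stand-in for reads that are not independent molecules, 4 missing sites were called higher and 0 lower.

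More reads give more calls, and the missing sites had fewer. Where both oocytes had 200 or more reads, 210 of 781 missing sites were called higher (26.9%, 23.9 to 30.1), against 39.4% of the kept sites (37.0 to 41.8) and 39.8% of all oocyte-shared sites of that depth. The median difference at this depth was 3.73 points (3.42 to 4.18) at the missing and 5.79 points (5.52 to 6.14) at the kept sites. Sites that the embryo list lacks thus differed less in median between the GV and the MII oocyte than those it kept, also among sites of at least this depth, although the kept sites were still the deeper ones. The sites were not matched on level here. Missing sites had the lower MII levels, and the MII level is part of the difference.

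Of the 1974 missing sites with at least 100 reads in both oocytes, 355 were called higher and 13 lower, which is a smaller share than the 29.8% called higher of all 7359 oocyte-shared sites of this depth. The largest rise was in Cyp4f39, a cytochrome P450, from 76 of 218 reads (34.9%) to 78 of 106 reads (73.6%), with an adjusted p of 4.62e-09 by Fisher's exact test. Taok1, a kinase of the Ste20 family, rose from 37.3% of 150 reads to 71.8% of 117 reads in its 3′ UTR, and Dcaf1, a substrate receptor of a cullin ubiquitin ligase, from 22.2% of 126 reads to 53.2% of 111 reads. Rest had the most reads among them, with 330 of 679 (48.6%) and 390 of 503 (77.5%) and an adjusted p of 6.22e-22 by the same exact test. Ankrd50, a protein of endosomal recycling, rose from 12.8% of 133 reads to 41.5% of 135 reads. Cyp4f39, Rest and Ankrd50 kept no oocyte-shared site. Among the genes with most missing sites, 7 of the 13 in Kmt2d, 5 of the 15 in Cep170b and 3 of the 19 in Kmt2b were called higher in the MII oocyte, and none was called lower.

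The 5 largest falls were in Calu, Irf2bp2, Poldip3, Tmed2 and Sec61a1, and 4 of the 5 lay in a 3′ UTR, which holds 355 of all 1974 missing sites of this depth. Calu, a calcium-binding protein of the secretory pathway, fell from 192 of 237 reads (81.0%) to 84 of 155 reads (54.2%), with an adjusted p of 8.02e-07 by Fisher's exact test. Irf2bp2, a transcriptional corepressor, fell from 37.9% of 132 reads to 14.7% of 225 reads, and Poldip3, an mRNA-binding protein, from 186 of 234 reads (79.5%) to 129 of 215 reads. Tmed2, a cargo receptor of the early secretory pathway, fell from 73.3% of 195 reads to 54.6% of 141 reads. Sec61a1, the pore of the endoplasmic reticulum translocon, fell from 84.8% of 355 reads to 68.6% of 382 reads, and its best-covered kept site was at 22.8%, 28.8% and 37.3% in the GV oocyte, MII oocyte and embryo. The missing Sec61a1 site was thus higher in both oocytes than this one of its 5 kept sites.

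**Figure D5:**
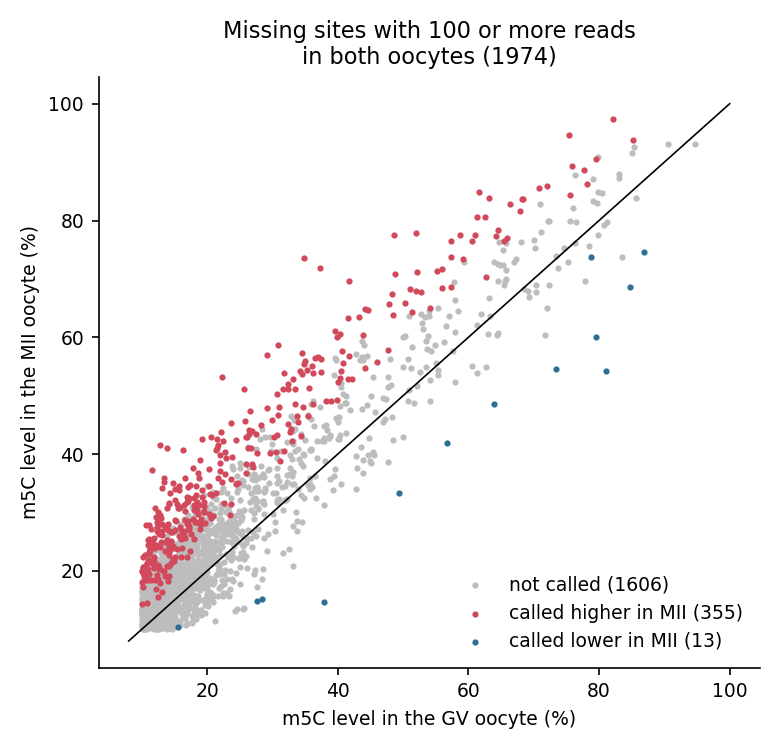
Each point is 1 of the 1974 missing sites with at least 100 reads in both oocytes, with its m5C level in percent in the GV oocyte (x) and MII oocyte (y); colour marks the sites called by Fisher's exact test and the line equal levels. Most called points lie above the line, 355 against 13 below it.

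Missing and kept sites differed in where they lay along the mRNA. Of the missing sites 64.9% (63.6 to 66.2) were in the CDS, 23.4% (22.3 to 24.6) in a 3′ UTR and 10.5% (9.69 to 11.4) in a 5′ UTR, with 48 sites in another exon and 10 in no exon of the gene. Of the kept sites 75.1% (73.6 to 76.6) were in the CDS, 14.0% (12.8 to 15.3) in a 3′ UTR and 10.2% (9.22 to 11.4) in a 5′ UTR. Seen from the regions, 56.9% (54.7 to 59.0) of the oocyte-shared 3′ UTR sites in still-listed genes were missing and 42.6% (41.5 to 43.7) of those in the CDS. At 100 to under 200 MII reads the difference was smaller but still seen, with 50.5% (46.2 to 54.8) against 43.9% (41.7 to 46.1). From 200 reads the 3′ UTR share was no longer the higher one. It was 25.8% (21.4 to 30.7) against 27.3% (25.2 to 29.4) at 200 to 399 reads. At 400 or more it was 8.43% (5.63 to 12.4) against 11.3% (9.87 to 13.0), and the intervals overlapped in both of these classes. Within the CDS, codon positions were alike, with 36.9% of the missing and 37.7% of the kept sites at position 1.

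The sequence around the missing C was close to that of the kept C. Type II sites made up 6.66% (6.01 to 7.38) of the missing and 4.51% (3.83 to 5.31) of the kept sites, and at 100 or more reads in both oocytes 5.88% (4.93 to 7.01) and 4.05% (3.34 to 4.91). Over all oocyte-shared sites the share was 5.90%. At 100 to under 200 MII reads it was 5.56% (4.42 to 6.98) of the missing and 4.60% (3.39 to 6.23) of the kept sites. At 50 to 99 MII reads it was 7.08% (5.95 to 8.41) and 5.62% (3.83 to 8.16), and the intervals overlapped in both of these classes. Missing Type I sites had a mean of 2.24 G (SD 0.855, n = 4752 sites) among the 4 bases after the C, and kept ones 2.27 (SD 0.856, n = 2920 sites). A G stood directly after the C in 34.2% (32.8 to 35.5) of the missing and 38.8% (37.0 to 40.6) of the kept Type I sites, while at the next 3 positions the intervals overlapped. In RNAfold structures of 101 nt, the C of 57.7% (56.3 to 59.1) of the missing and 60.7% (58.9 to 62.4) of the kept Type I sites was paired. The motif in the RNA was thus close in both sets. The small difference in the Type II share was within the intervals in these classes of like MII reads. That in the G directly after the C was not compared by depth. Reads and level differed, and so did position at all depths together. By gene medians at all depths, the missing sites lay nearer the 3′ end of the transcript in 809 of 1453 genes (55.7%) and farther from it in 644. This distance was not compared by depth. The median difference, missing minus kept, was -148.5 nt (-229 to -80).

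The gene-wide rate of unconverted C, which the deposited p-values imply, was also near in both kinds of gene. In genes with a missing site its median was 0.269% for GV oocytes, 0.384% for MII oocytes and 0.397% for embryos. In the 1812 still-listed genes that kept every oocyte-shared site it was 0.255%, 0.368% and 0.407%. Sites whose deposited p was too small gave no rate, which left out genes unequally. The medians rest on 2547, 2555 and 2561 of the 2561 genes with a missing site. For the 1812 genes they rest on 1590, 1652 and 1791.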

How the data were processed

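RNA bisulfite sequencing of 3 mouse samples gave 3 lists of called m5C sites, 1 per stage, with 1 library each. Per the study's methods, trimmed reads were mapped by HISAT2 to a C-to-T converted GRCm38 genome, and unmapped ones by Bowtie2 to converted transcripts. The submitters' processing notes name cutadapt 1.13, Trimmomatic 0.36, HISAT2 2.10, Bowtie2 2.2.9 and bcl2fastq 2.17. The authors' calls had to pass limits on reads, level, signal ratio and poorly converted reads or genes. The authors deposited the coverage as a count of reads without normalization, the m5C level as a fraction (given here in percent) and a binomial p-value that uses the conversion rate of each gene. Only called sites are listed, and an absent one may be unmethylated, below the limits or not covered. The embryo list analysed here differs in coverage and levels from the one in the supplement of the study, which did not enter any result. Which sites are missing is defined by the list analysed here and may depend on it.

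Level times coverage gave the unconverted reads and was whole to within 2.9e-05 reads. Sites were joined on chromosome, position and strand. Regions, exons and sequences came from GENCODE M21 (GRCm38), where 40203 of 40220 exonic sites had a transcript base that was read, all of them C. A site took the first region, in the order CDS, 5′ UTR, 3′ UTR and other exon, that any transcript of its gene gave it. Exon numbers and sequences used the transcript with the longest coding sequence among those that held the site. Levels of the 2 oocytes were compared site by site with a two-sided Fisher's exact test and Benjamini-Hochberg adjustment (threshold 0.05) over the 12954 sites in both lists, and the test was checked on simulated data. Shares have Wilson 95% intervals and medians have 95% intervals from order statistics, and both cover counting or sampling of sites and no biological spread. The nearest listed site was sought along the transcript that holds both sites, or along the genome where they lie on different transcripts (208 missing and 37 kept sites). RNAfold 2.7.2 folded 101 nt at 37 °C. Python 3.11.15, scipy 1.17.1, numpy 2.4.6, pandas 2.3.3 and matplotlib 3.10.9 were used.

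The missing sites, gene lists and tests were chosen with earlier results of these data known. The genes named were the 10 with most missing sites, the 10 missing sites of highest mean oocyte level and the 5 largest rises and falls (at least 100 reads in both oocytes), the 10 of highest MII level within 10 nt of an embryo-listed site with at least 100 reads (1 of which is not reported here), and 2 genes per gene group. Alternatives were limits on reads and level, other gene sets, a chi-square test, reads divided by 5, other motif and region definitions, other distances and other assumed coverages.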

Additional observations from a re-analysis of the deposited data

How the results depend on the processing

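The missing sites stayed lower in level and in coverage than the kept sites of their genes under every limit and gene set tried, and no direction reversed. With at least 50 reads in both oocytes the missing share was 38.3%, the median levels were 17.6% (GV) and 22.2% (MII), and the coverage ratio within genes was 0.685. With at least 100 reads there were 1974 missing sites (28.1%) with medians of 16.5% and 20.8%, a within-gene MII difference of -7.21 points, a coverage ratio of 0.786, 13 sites called lower in the MII oocyte, a Type II share of 5.88% and a CDS share of 72.8%. With a level of at least 20% in both oocytes there were 2217 (40.7%), with medians of 33.9% and 41.3%, a difference of -2.60 points, a ratio of 0.518, 282 sites called higher and a mean of 2.29 G after the C. In genes that keep an oocyte-shared site there were 3050 (33.2%), with a GV median of 18.9%, and 350 were called higher and 14 lower. Genes with at least 3 embryo-listed sites held 3248 (38.3%) with a GV median of 18.9%. Dividing the reads by 5 left 4 sites called higher and 0 lower. A listed embryo site lay within 20 nt of 4.21% and within 50 nt of 9.64% of the missing sites, and a site with at least 100 reads within 10 nt of 0.216%. The listing limits would be met by 77.9% of the missing sites at the lowest embryo coverage of the gene, by 86.2% at the GV level and by 55.7% at the scaled coverage added after seeing the data. The other alternatives, CUCCA alone, the transcript with the longest coding sequence and a chi-square test with continuity correction, moved no share or count past its interval or 1.5 times.

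No paired analysis was possible because each stage has 1 library. Depth limits these comparisons: the embryo list rests on a median of 58 reads a site, it gives no reads for a missing site, and duplicates could not be told from independent molecules. The read intervals therefore understate the error, stage and library preparation cannot be separated, and the oocyte calls compare single libraries.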
